A study of Drosophila melanogaster with 3 samples.

Results

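Octopamine and tyramine receptors are the G protein-coupled receptors through which neurons, muscle and other tissues of the fly sense the amines octopamine and tyramine. The 8 genes described here were taken by name, and all 8 were matched by FlyBase ID among the 17558 genes of the count table. They comprise 5 octopamine receptor genes (Oamb, Octalpha2R, Octbeta1R, Octbeta2R and Octbeta3R) and 3 tyramine receptor genes (Oct-TyrR, TyrR and TyrRII). Polyadenylated RNA was sequenced in 3 replicate libraries from heads of adult wild-type *Drosophila melanogaster*, untreated and raised at 25°C. The text of the series names the strain as CantonS, whereas the methods of the study define wild-type flies as w1118, and both names are given here because the difference could not be settled. The labels give neither the sex and age of these flies nor the number of heads per library, and they do not say whether the replicates came from separate cultures. There was 1 group and no contrast between groups, so the comparisons below set genes against each other inside each library. The SDs measure only the spread of these libraries, which may be technical, and the p-values rest on the same libraries. For ratios of genes, the exact permutation test gives p = 0.25 whenever the signs of the 3 libraries agree, whatever their spread.

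Octopamine and tyramine are made from tyrosine and serve insects in roles that resemble those of noradrenaline and adrenaline in vertebrates, including arousal, flight, feeding, reward learning and egg laying. Tyrosine decarboxylase makes tyramine, which tyramine beta-hydroxylase turns into octopamine. Oamb is related to the vertebrate alpha1 adrenergic receptors and raises intracellular calcium, and Octalpha2R is related to the alpha2 adrenergic receptors. The 3 Octbeta receptors resemble beta adrenergic receptors and raise cyclic AMP. Oct-TyrR was first described as a receptor for both amines and is more sensitive to tyramine, and TyrR and TyrRII form a second group of tyramine receptors.

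All receptor genes except Oct-TyrR lie on chromosome 3R in the dm6 coordinates, and Oct-TyrR lies on 3L (22035003 to 22065279, plus strand). The members include adjacent pairs of genes. Octbeta3R (FBgn0250910, 12511570 to 12548229) and Octbeta2R (FBgn0038063, 12550625 to 12595725) follow each other on the minus strand of 3R with a gap of 2395 bp and 0 genes between them. TyrRII (FBgn0038541, 17736611 to 17747470, plus strand) and TyrR (FBgn0038542, 17750129 to 17763188, minus strand) point toward each other with a gap of 2658 bp, again with 0 genes between them. Octalpha2R (FBgn0038653, 18799280 to 18849224, minus strand), Oamb (FBgn0024944, 20689018 to 20714577, minus strand) and Octbeta1R (FBgn0038980, 22497215 to 22520078, plus strand) stand alone, with gaps of 1036091 to 1839793 bp to the nearest members on either side.

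The members differed in annotated length, which bears on every comparison of their levels. The union of all exons of a gene ran from 3682 bases for Oct-TyrR (FBgn0004514) to 9804 for Octalpha2R. Noncoding bases made up 77.4% of the exons of Octalpha2R, 74.9% of those of Octbeta2R and 71.3% of those of Octbeta1R. In Octbeta3R the share was lowest, at 38.2%, and this gene had the longest coding sequence, 3768 bases for a protein of 1256 residues. In Oamb, 3287 bases were coding in at least 1 transcript while the longest single coding sequence had 2253, so its 6 transcripts do not all encode the same parts. The number of annotated transcripts ran from 2 for Oct-TyrR to 6 for Oamb and Octbeta2R. Exons of another annotated gene overlapped a member only in Octbeta2R, where the microRNA gene mir-284 covers 100 exon bases (1.33%) on the same strand. The neuropeptide gene Hug lies within the Octbeta3R locus on the opposite strand and shares 0 exon bases with it.

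**Figure D1:**
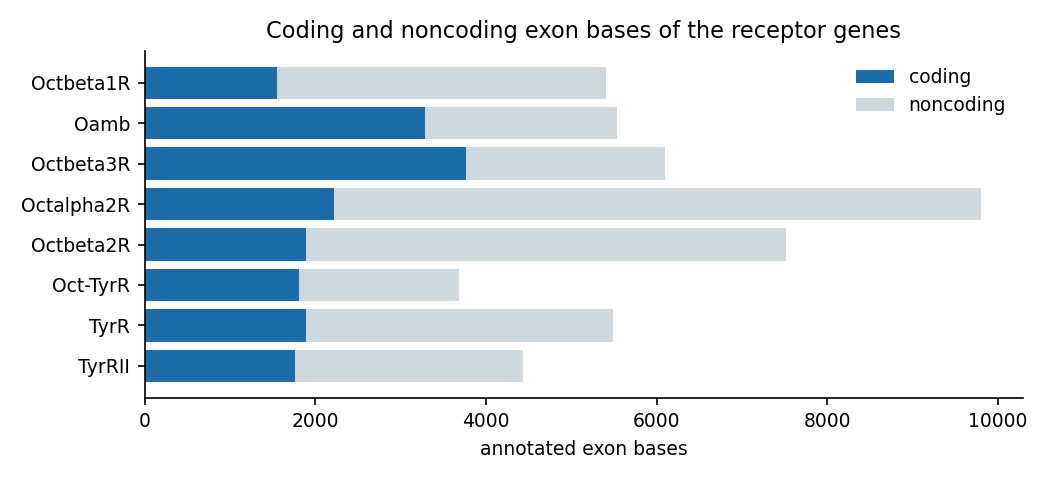
Annotated exon bases of the 8 receptor genes (horizontal axis), divided into bases that are coding in at least 1 transcript and bases that are noncoding in all. Octalpha2R has the most exon bases, 9804, of which 77.4% are noncoding, and Octbeta3R has the most coding bases, 3768.

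The libraries held 8332583, 7349123 and 6299265 counts in replicates 1, 2 and 3. Levels are given as counts per 1000000 counts of a library (CPM), so that 1 count equalled 0.12, 0.136 and 0.159 CPM. A gene without counts could hold up to 3 of them, or 0.36 to 0.476 CPM. All 8 members were detected, meaning at least 10 counts summed over the libraries, a level that 57.5% of the 17558 genes reached. Each member also had at least 10 counts in every library. Together the receptors took 2805, 2266 and 2314 counts in the 3 libraries, in the order of their replicate numbers. The family sum was 337 CPM ± 29.5 (SD, n = 3). Intervals of single libraries below are Wilson 95% intervals, and they cover counting error only. In whole heads, fewer cells that express a receptor and less of its RNA per cell cannot be told apart.

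Among the alpha-type octopamine receptors, Oamb had 466, 451 and 394 counts in replicates 1, 2 and 3, or 55.9, 61.4 and 62.5 CPM. Its 3 intervals overlapped (51.1 to 61.2, 56.0 to 67.3 and 56.7 to 69.0 CPM), and the mean was 59.9 CPM ± 3.53 (SD, n = 3). Oamb is known from mushroom body neurons, the centre of olfactory learning in insects, and from the oviduct. Octalpha2R had 573, 450 and 462 counts, or 68.8, 61.2 and 73.3 CPM, with a mean of 67.8 CPM ± 6.11. Its intervals also overlapped, the lowest being 55.8 to 67.2 CPM in replicate 2 and the highest 67.0 to 80.3 CPM in replicate 3. Per kilobase of exon, the scale on which genes can be compared, there were 10.8 CPM per kilobase ± 0.64 for Oamb and 6.91 ± 0.62 for Octalpha2R.

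The beta-type octopamine receptors were led by Octbeta1R, which had 675, 516 and 580 counts, or 81.0, 70.2 and 92.1 CPM. With 81.1 CPM ± 10.9 (SD, n = 3) it was the highest member in every library, and it was also the highest per kilobase, at 15.0 ± 2.02. The interval of replicate 3 (84.9 to 99.9 CPM) lay wholly above that of replicate 2 (64.4 to 76.5 CPM). Octbeta3R had 457, 384 and 379 counts, or 54.8, 52.3 and 60.2 CPM, with a mean of 55.8 CPM ± 4.03 and overlapping intervals. Octbeta2R, a receptor known for its part in the growth of larval motor nerve endings, had 322, 230 and 271 counts, or 38.6, 31.3 and 43.0 CPM. Its mean was 37.7 CPM ± 5.92, and the interval of replicate 3 (38.2 to 48.5 CPM) again lay above that of replicate 2 (27.5 to 35.6 CPM). Per kilobase, Octbeta3R reached 9.14 ± 0.66 and its adjacent gene Octbeta2R 5.01 ± 0.79. The log2 ratio of Octbeta3R to Octbeta2R was 0.81, 1.04 and 0.78 in the libraries (mean 0.88 ± 0.14), so the neighbours differed by more than the spread between replicates on this scale.

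The tyramine receptors were the lowest members by counts. Oct-TyrR had 136, 104 and 121 counts, or 16.3, 14.2 and 19.2 CPM, with a mean of 16.6 CPM ± 2.54 (SD, n = 3). TyrR had 127, 99 and 81 counts, or 15.2, 13.5 and 12.9 CPM, with a mean of 13.9 CPM ± 1.24. The CPM values of Oct-TyrR and TyrR overlapped, whereas per kilobase they were separate, at 4.50 ± 0.69 and 2.52 ± 0.23. TyrRII had 49, 32 and 26 counts, or 5.88, 4.35 and 4.13 CPM, the lowest values of the family in every library. Its mean of 4.79 CPM ± 0.95 exceeded the value of 3 counts in each library, and its interval in replicate 3 was 2.82 to 6.05 CPM. Per kilobase TyrRII reached 1.08 ± 0.22, and the log2 ratio of TyrR to TyrRII, the pair with convergent transcription, was 1.05, 1.30 and 1.31.

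**Figure D2:**
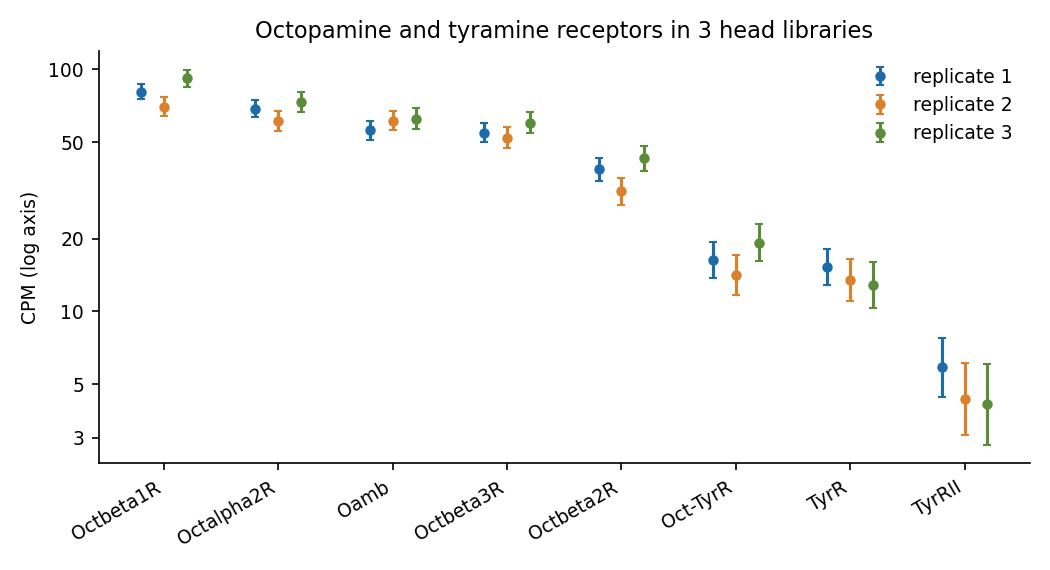
CPM of the 8 receptor genes (log axis) in replicates 1, 2 and 3. Points are single libraries and bars are Wilson 95% intervals, which cover counting error only; Octbeta1R is highest in every library (70.2 to 92.1 CPM), and TyrRII is lowest (4.13 to 5.88 CPM).

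Levels of different genes can be ordered only per length. Per kilobase of exon the order was Octbeta1R, Oamb, Octbeta3R, Octalpha2R, Octbeta2R, Oct-TyrR, TyrR and TyrRII, and the highest mean was 13.9 times the lowest. Of the 28 pairs of members, 27 had library values per kilobase that did not overlap, and 1 pair did overlap. Among all pairs of detected genes with a length, 91.3% were separate in the same sense, so the count for the receptors is close to that of any pair of detected genes. The overlapping pair was Octbeta2R and Oct-TyrR, whose log2 ratio was only 0.21, 0.11 and 0.13 in the libraries (mean 0.15 ± 0.05). Oamb and Octbeta3R, the next closest neighbours, had a log2 ratio of 0.17, 0.37 and 0.20 (mean 0.25 ± 0.11). The ratio of Octbeta1R to Oamb was 0.46 ± 0.20, and it was smallest in replicate 2, at 0.23. For each of the 28 ratios the sign was the same in 3 of 3 libraries. Separate values fix the sign, and 91.3% of all pairs were separate, so this count does not set the receptors apart. An exact permutation test that flipped the signs of the library values (two-sided) gave p = 0.25 for each, the smallest that 3 libraries can give, and it was 0.25 after Benjamini-Hochberg adjustment over the 28 pairs.

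The order in the middle of the family depended on the length used. With the longest coding sequence in place of all exon bases, Octalpha2R stood next after Octbeta1R, at 30.5 CPM per kilobase of coding sequence against 26.6 for Oamb and 14.8 for Octbeta3R. The log2 ratio of Oamb to Octalpha2R then became -0.20, that of Octbeta3R to Octalpha2R -1.04 and that of Octbeta3R to Octbeta2R -0.42. Octbeta1R stayed highest (53.2), and Oct-TyrR (9.18), TyrR (7.32) and TyrRII (2.72) stayed lowest in the same order. With the longest transcript the lead of Octbeta1R in the mean was smaller, at 16.2 CPM per kilobase against 14.6 for Oamb. Their library values overlapped, and Oamb was the higher of the pair in replicate 2. With that length 25 of the 28 pairs were separate. Which transcript ends were in use was not measured here, and the count of a gene with long noncoding exons includes reads from them.

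**Figure D3:**
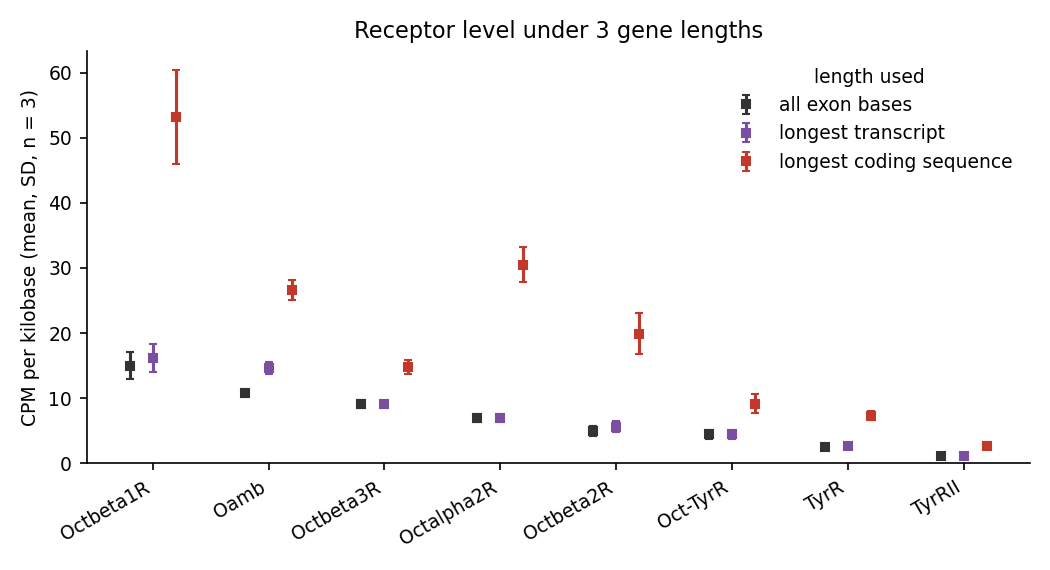
CPM per kilobase of the 8 receptor genes under 3 definitions of length: all annotated exon bases, the longest transcript, and the longest coding sequence. Squares are means and bars are the SD over 3 libraries. By mean, Octbeta1R is highest and TyrRII lowest under each, whereas Octalpha2R lies at 6.91 by exon bases and at 30.5 by coding sequence. With the longest transcript Octbeta1R and Oamb lie close, at 16.2 and 14.6.

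By receptor class, the 3 beta-type genes held 52.9% ± 1.70 of the family level per kilobase (SD, n = 3). Oamb held 19.8% ± 1.96, Octalpha2R 12.6% ± 0.21 and the 3 tyramine receptors 14.7% ± 0.74. The share of Oamb was highest in replicate 2, at 22.0%, against 18.5% and 18.9% in the other libraries. As shares of counts with no length taken into account, the beta class held 51.6% ± 1.65, Octalpha2R 20.1% ± 0.30, Oamb 17.8% ± 1.79 and the tyramine class 10.4% ± 0.64. Summed per kilobase, the 5 octopamine receptors exceeded the 3 tyramine receptors by a log2 value of 2.53 ± 0.08, which is 5.42-fold to 6.05-fold in the single libraries.

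Against all detected genes the members lay in the middle and lower part of the range once length was considered. Octbeta1R exceeded 56.8% ± 5.21 of detected genes per kilobase (SD, n = 3), Oamb 46.4% ± 1.74 and Octbeta3R 41.3% ± 2.76. Octalpha2R exceeded 34.1% ± 3.17 per kilobase but 71.2% in CPM, the widest difference between the scales in the family. Octbeta2R exceeded 27.2% ± 3.57 of genes per kilobase and Oct-TyrR 25.1% ± 3.21. At the low end, TyrR exceeded 17.1% ± 1.15 and TyrRII 9.21% ± 1.48. These ranks depended on the filter for detection. Among all genes with at least 1 count, TyrRII exceeded 28.1%, TyrR 35.1%, Oct-TyrR 41.5%, Octbeta2R 43.1% and Octbeta1R 66.2%. The median detected gene had 12.3 CPM per kilobase, a level that only Octbeta1R exceeded.

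None of the receptors stood out for variation between replicates. The quasi-likelihood model of edgeR, fitted to 9049 genes, asked whether a gene varied between libraries beyond what its abundance predicts. It called 29 genes (0.32%) at a threshold of 0.05 on the adjusted p, and 0 of the 8 members were among them. At an unadjusted p under 0.05 the numbers were 420 genes and 0 members. Each member had an adjusted p of 0.992 (edgeR, Benjamini-Hochberg over all genes), and the smallest unadjusted p were 0.0589 for Octbeta2R and 0.0601 for Octbeta1R in that fit. DESeq2 marked 107 of 9049 genes (1.18%) as dispersion outliers, with 0 members among them. In counts simulated over 8956 genes for this fit, 2.99% of 2-fold and 94.0% of 4-fold changes in 1 library were recovered. The members' libraries differed by at most 1.42-fold (TyrRII), and changes of 2-fold were thus rarely recovered. Against counting error alone, 2 of 8 members (Octbeta1R and Octbeta2R) had intervals that did not overlap between a pair of libraries, and 23.2% of detected genes did so.

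Most octopamine receptors followed a common order across the libraries. In 5 of 8 members (Octalpha2R, Octbeta1R, Octbeta2R, Octbeta3R and Oct-TyrR) the CPM was lowest in replicate 2 and highest in replicate 3, an order found in 15.4% of detected genes. Only for Octbeta1R and Octbeta2R were the intervals of replicates 2 and 3 separate. They overlapped for Octalpha2R, Octbeta3R and Oct-TyrR (11.7 to 17.1 and 16.1 to 22.9 CPM for Oct-TyrR). The order was not particular to the receptors. It was also found in 3 of 5 genes of amine synthesis and transport, 5 of 11 G protein subunits and 9 of 23 effectors. Of 5 desensitisation genes 1 had it, and of 12 other amine receptors 3. Oamb was lowest in replicate 1 and highest in replicate 3, and TyrR and TyrRII were highest in replicate 1 and lowest in replicate 3. This order was examined after the values were seen, and no test was made of it. The family sum had the same order, rising from 308 CPM (replicate 2) through 337 (replicate 1) to 367 (replicate 3), and the interval of replicate 3 (353 to 383 CPM) did not overlap those of replicate 1 (324 to 349) and replicate 2 (296 to 321).

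The sum of the neuron markers had the order of the family sum, though not every marker did. The 5 neuron marker genes elav, nSyb, Syt1, brp and Syn summed to 4005, 3579 and 4230 CPM, and 3 of 5 had the order of the 5 receptors. Of the others, nSyb was highest in replicate 1 and brp lowest in replicate 1. The 4 glial markers summed to 2324, 2230 and 2150 CPM, and 0 of 4 had that order. The 3 photoreceptor markers summed to 29382, 30780 and 30781 CPM, lowest in replicate 1, and 0 of 3 had it. Most of that sum was ninaE, at 20659, 22791 and 22164 CPM. The other photoreceptor markers, ninaC (4909, 4550 and 4825 CPM) and trp (3815, 3439 and 3792 CPM), were lowest in replicate 2 and highest in replicate 1. Expressed per 1000 counts of the neuron markers, the receptor family had 84.0, 86.2 and 86.8 counts, a coefficient of variation of 1.70% against 8.75% in CPM. Octalpha2R had 17.2, 17.1 and 17.3 counts per 1000, and its coefficient of variation became 0.69% in place of 9.02%. The coefficient was lower on this scale for 5 of 8 members and higher for the other 3, Oamb (10.8% against 5.89%), TyrR (12.2% against 8.93%) and TyrRII (20.2% against 19.9%). Those 5 are the members chosen above for their order in CPM, which the marker sum and the family sum share. A smaller spread after division by the marker sum therefore follows partly from the division itself. The share of all detected genes with a lower coefficient was not obtained. On this scale 4 of 8 members (Octalpha2R, Octbeta1R, Octbeta2R and Oct-TyrR) were still lowest in replicate 2 and highest in replicate 3, against 3.5% of detected genes. Because the order was chosen from these same values, the 2 shares cannot be compared as a test. For Octalpha2R the differences lay within counting error, which alone gives a coefficient of 4.51%. Oamb was highest in replicate 2, at 17.1 counts per 1000 against 14.0 and 14.8. The mitochondrial share of counts also differed, at 7.20%, 3.88% and 6.62%, and so did the fat body markers, at 20565, 30081 and 22342 CPM. The 2 haemocyte markers summed to 266, 319 and 388 CPM, highest in replicate 3 like the family sum and lowest in replicate 1. The part of any of these in the receptor values was not tested.

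**Figure D4:**
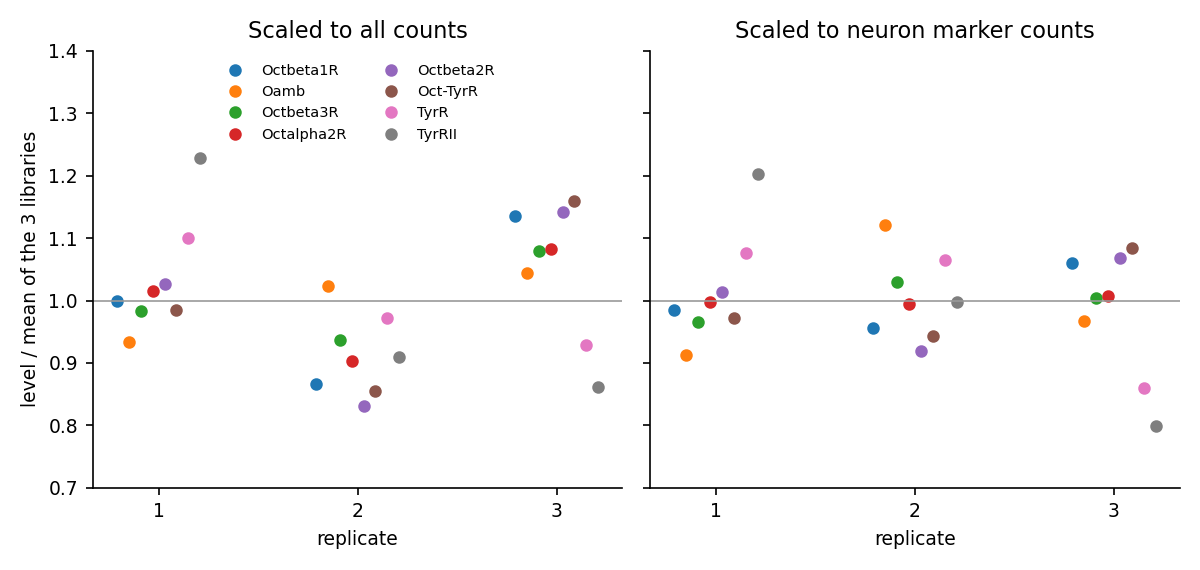
Level of each receptor gene divided by its mean over the 3 libraries, scaled to all counts (left) and to the counts of 5 neuron marker genes (right), by replicate. Each point is 1 gene in 1 library. On the left 5 of 8 genes are lowest in replicate 2 and highest in replicate 3, and on the right the same 5 have a smaller coefficient of variation. The marker sum has that order too, so the smaller spread follows partly from the division.

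Among 20 amine receptor genes, the 8 members with 4 dopamine, 5 serotonin and 3 muscarinic acetylcholine receptors, Octbeta1R ranked 4, Oamb 5 and Octbeta3R 6 per kilobase. DopEcR, a receptor for dopamine and ecdysteroids, was first at 84.2 CPM per kilobase ± 5.26 (SD, n = 3). The serotonin receptor 5-HT2A (22.2 ± 1.12) and the muscarinic receptor mAChR-A (16.9 ± 1.04) followed. Octalpha2R ranked 10, Octbeta2R 15 and Oct-TyrR 16. TyrR and TyrRII ranked 18 and 19, above only mAChR-C, which had 0 counts in every library. The lowest detected gene outside the family per kilobase was 5-HT2B, at 3.69 ± 0.48, between Oct-TyrR and TyrR. Several ranks depended on length. In CPM, Octbeta1R ranked 5, Octalpha2R 6, Oamb 7, Octbeta3R 8, Octbeta2R 11 and Oct-TyrR 17, and TyrR and TyrRII kept their ranks. The dopamine receptor Dop1R1 ranked 3 in CPM, above every member, but 9 per kilobase.

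Summed per kilobase, the 4 dopamine receptors exceeded the 8 octopamine and tyramine receptors by a log2 value of 0.91 ± 0.08 (1.77-fold to 1.96-fold in single libraries). Without DopEcR the direction was the other way, with a log2 value of -1.53 ± 0.04. The 5 octopamine receptors and the 5 serotonin receptors had sums of 46.9 ± 4.21 and 45.8 ± 1.85 CPM per kilobase. Their log2 ratio was -0.003, -0.02 and 0.12, so no difference beyond the spread between libraries was seen, whereas without length the ratio was 0.36. For 6 such ratios of receptor and enzyme sums, the same exact permutation test gave p = 0.25 for 5 of them and p = 1 for octopamine against serotonin receptors (0.3 and 1 after Benjamini-Hochberg adjustment).

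**Figure D5:**
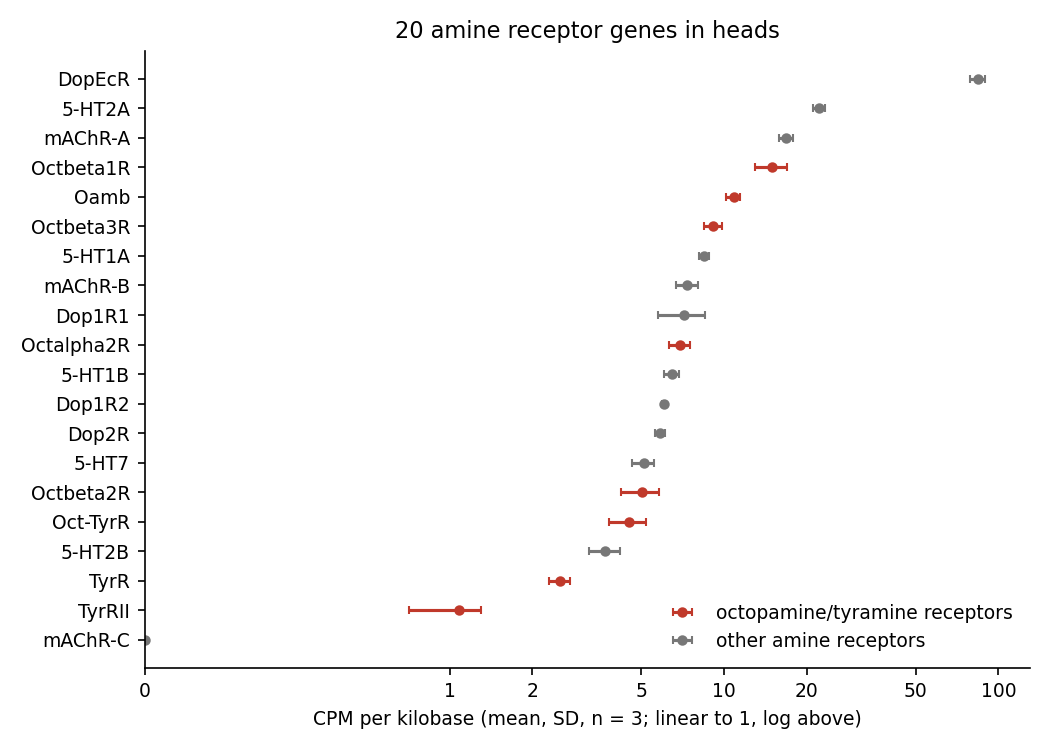
Level of 20 amine receptor genes in CPM per kilobase of exon (horizontal axis, linear up to 1 and logarithmic above). Points are means and bars the SD over 3 libraries. On this scale Octbeta1R, Oamb and Octbeta3R hold ranks 4 to 6, and TyrR and TyrRII lie near the bottom of the range. In CPM, Octbeta1R, Oamb and Octbeta3R rank 5, 7 and 8.

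The enzymes and transporters on the ligand side were all detected. Tdc2, the neuronal tyrosine decarboxylase, had 96, 76 and 81 counts and 5.03 CPM per kilobase ± 0.55 (SD, n = 3). Its counterpart outside the nervous system, Tdc1, had 117, 125 and 107 counts and 7.02 ± 0.75 CPM per kilobase. Tbh, the tyramine beta-hydroxylase, had 398, 316 and 325 counts and 12.3 ± 1.11 CPM per kilobase. Vmat, which loads all monoamines into vesicles, reached 53.4 ± 2.59, and the related transporter prt 6.32 ± 0.49. Octbeta1R (15.0) was the only member with a higher mean per kilobase than Tbh, and Octbeta2R (5.01) lay closest to Tdc2. Without length this differed. In CPM, Octbeta1R (81.1), Octalpha2R (67.8), Oamb (59.9) and Octbeta3R (55.8) all exceeded Tbh (47.5), and TyrR (13.9) lay closest to Tdc2 (11.6). The receptor family summed to 4.44-fold to 4.53-fold the level of Tbh in the single libraries, and to 10.7-fold to 11.2-fold that of Tdc2. These ratios depended on length, since the mean log2 ratio was 2.16 to Tbh and 3.45 to Tdc2 per kilobase but 2.83 and 4.87 in CPM.

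On the side of the signal, all 11 G protein subunit genes were detected, from Galphaf at 1.60 CPM per kilobase ± 0.38 (SD, n = 3) to Gbeta76C, the beta subunit of photoreceptors, at 654 ± 20.1. Of 23 effector genes, 20 were detected, from ACXB, an adenylyl cyclase with 6, 2 and 4 counts, to norpA, the phospholipase C of phototransduction, at 247 ± 22.0. ACXA and ACXE had 0 counts in every library, and Pka-C2 had 1, 1 and 0. Taken singly, a library without counts allows up to 0.36 to 0.476 CPM, and the libraries together allow less. The 5 desensitisation genes ran from krz, the nonvisual arrestin, at 12.9 ± 1.11 to the visual arrestin Arr2 at 6051 ± 267 CPM per kilobase. Among these lists and the 12 other amine receptors, 0 genes were called variable between replicates in the same fit, as for the receptors (0.32% of all genes).

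The markers were those of heads. Photoreceptor genes were abundant, with ninaE at 21871 CPM ± 1096 (SD, n = 3), and all neuron, glia and haemocyte markers were detected. Of the defining ovary and testis markers, 0 of 5 reached 10 counts. The 4 flight muscle markers did not move together. Act88F had 26, 23 and 116 counts in replicates 1, 2 and 3, and it was the only marker called variable in the edgeR fit. Counts of fln were 2, 2 and 6, whereas TpnC4 had 16, 14 and 10, and Mhc, the muscle myosin heavy chain, was highest in replicate 1. Summed, the list had 4012, 3262 and 3534 CPM.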

How the data were processed

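The deposited values are raw counts of reads for each FlyBase gene, not normalised, in 1 table that has a column for each of the 3 libraries. Per the labels, 150 ng of total RNA entered the TruSeq Stranded mRNA kit, and the submitters' processing notes name STAR 2.7.4a, Subread, featureCounts and dm6. The strand and multimapping settings are not given in the sources used here. No column was left out. The replicates carry no label of batch.

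Ensembl release 115 gave gene names, positions and lengths (dm6 coordinates) and matched 17251 of 17558 IDs. The study used an earlier release. CPM were counts per 1000000 counts of the library, and per-kilobase values used the union of annotated exons. Pair ratios were log2 values per library with 0.5 counts added. Variation between replicates was tested with edgeR 4.0.16 (R 4.3.3) on genes passing filterByExpr, with TMM scaling and an intercept-only design, by the upper tail of the F distribution of the quasi-dispersion, with a threshold of 0.05 after Benjamini-Hochberg adjustment. DESeq2 1.42.0 was an alternative. The fit was tested on simulated data. Alternatives were other lengths, scalings, pseudocounts and filters, and leaving out each library. All 8 members are named, with every synthesis gene, and of the other lists the highest and lowest detected gene, genes not detected and genes called. The members and lists were chosen with earlier results of these data known.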

Additional observations from a re-analysis of the deposited data

How the results depend on the processing

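For 54 results, 326 values were obtained under other settings. In 288 the value moved by less than 1 SD between libraries or, for counts of genes, by at most 1.5 times, or a ratio kept its sign, 35 moved further, and 3 ratios changed sign. Leaving out 1 library cannot move a mean of 3 libraries by 1 SD, nor change a sign that all 3 share. Those values among the 288 were thus fixed in advance and do not measure stability. The pair ratios were not obtained with the longest transcript as the length. No paired analysis was possible because the 3 libraries form a single group. With the longest coding sequence as the length, the log2 ratio became -0.20 for Oamb to Octalpha2R, -1.04 for Octbeta3R to Octalpha2R and -0.42 for Octbeta3R to Octbeta2R, which follows from the lengths by construction. The class shares also moved with the length used. With the longest transcript they were 24.1% for Oamb, 11.4% for Octalpha2R, 50.8% for the beta class and 13.7% for the tyramine class. With the longest coding sequence they were 16.3% for Oamb, 18.6% for Octalpha2R and 11.7% for the tyramine class. As shares of counts they were 20.1% for Octalpha2R and 10.4% for the tyramine class. The number of genes called variable was 29, and it became 118 with no filter beyond 1 count, 55 without replicate 1, 57 without replicate 2 and 44 without replicate 3, with 0 members among them in each case. Leaving out 1 library moved the family sum between 322 and 352 CPM. Chosen after seeing the data, the order with the lowest value in replicate 2 and the highest in replicate 3 was found in 5 members under TMM, DESeq2 and nonmitochondrial scaling (19.5%, 20.6% and 19.1% of detected genes), and in 4 per neuron marker count (3.5%). Intervals were separate between libraries in 3 members, rather than 2, with TMM scaling or without mitochondrial genes (23.1% of detected genes in both).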
